A study of Homo sapiens with 8 samples.

Results

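The genes described here are the 7 human genes ORC1, ORC2, ORC3, ORC4, ORC5, ORC6 and LRWD1, which code for the subunits of the origin recognition complex and for ORCA, the protein that was immunoprecipitated. LRWD1 is the gene of ORCA. Each gene was taken as a fixed window of hg19 that was set around its gene body, from 9.001 kb for LRWD1 to 90.0 kb for ORC4, and every peak sharing at least 1 bp with a window was assigned to that gene. The genes were chosen by the peaks called in them, in all 4 lists and by their width and score, so that the number, width, score and overlap of these peaks are a description and were given no test. They held 56 of 10666 early, 19 of 10341 mid and 12 of 1328 late ORCA peaks, and 4 of 74497 peaks of methylated DNA.

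ORCA had been mapped by ChIP-seq, the sequencing of DNA that comes down with a protein, in the human osteosarcoma cell line U2OS after synchronization at early, mid and late G1. Methylated DNA was pulled down from U2OS cells of no stated stage and sequenced (MeDIP-seq). The ORCA and MeDIP groups each held 1 sample and had an input sample of their own, which was not analysed here. With 1 sample per group there is no replicate check, stages are given side by side, and the read depth behind the lists is unknown.

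The origin recognition complex binds DNA where replication can begin and, in G1, helps to load the helicase that will unwind it. ORC1, the subunit that joins in G1 and is removed again in later phases in human cells, ORC2, ORC3, ORC4 and ORC5 form the ring of the complex, and ORC6 is held more loosely. ORCA is a WD-repeat protein that binds the complex and helps to hold it on chromatin, in particular on heterochromatin.

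The upstream sequences of the 3 genes with ORCA peaks in every list are shown because methylated CpG is what MeDIP pulls down. They are the 250 bases before the start of each gene in RefSeq (GRCh38.p14), read on the gene's own strand, and the capitals mark every CpG. The ORC1 sequence lies on the minus strand at chr1:52404424-52404673, the ORC6 sequence on the plus strand at chr16:46689409-46689658 and the LRWD1 sequence on the plus strand at chr7:102464734-102464983, all in GRCh38.p14.
ORC1: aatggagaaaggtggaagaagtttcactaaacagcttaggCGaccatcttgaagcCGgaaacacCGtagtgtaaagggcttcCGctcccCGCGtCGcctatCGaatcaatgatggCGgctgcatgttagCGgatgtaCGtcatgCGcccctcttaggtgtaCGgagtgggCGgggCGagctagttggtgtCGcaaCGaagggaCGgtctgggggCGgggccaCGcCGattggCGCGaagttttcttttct
ORC6: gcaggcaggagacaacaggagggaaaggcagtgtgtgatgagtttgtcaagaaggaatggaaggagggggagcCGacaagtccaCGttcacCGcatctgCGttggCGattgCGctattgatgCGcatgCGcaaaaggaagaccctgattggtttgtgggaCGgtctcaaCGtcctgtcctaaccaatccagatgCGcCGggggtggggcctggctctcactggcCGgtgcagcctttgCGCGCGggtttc
LRWD1: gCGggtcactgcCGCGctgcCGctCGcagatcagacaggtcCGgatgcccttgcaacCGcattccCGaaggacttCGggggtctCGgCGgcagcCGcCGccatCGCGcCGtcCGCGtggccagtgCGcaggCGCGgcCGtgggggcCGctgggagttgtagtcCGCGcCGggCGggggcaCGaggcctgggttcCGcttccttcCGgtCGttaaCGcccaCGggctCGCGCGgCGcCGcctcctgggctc
LRWD1 had the densest stretch of the 3, with 38 CpG, against 23 in ORC1 and 16 in ORC6. Over 35116 RefSeq starts the median was 11 CpG, and 3.28% had at least as many as LRWD1, 25.8% at least as many as ORC1 and 41.0% at least as many as ORC6. All 7 genes matched the table, ORC4 with 2 starts, and their CpG numbers ran from 4, at one of the ORC4 starts, to 38. These stretches were not placed in hg19, so that their distance to the peaks was not measured.

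ORCA peaks were found in 6 of the 7 windows in early G1 and in 3 of them, those of ORC1, ORC6 and LRWD1, in mid and late G1. ORC1 and ORC3 held 15 early peaks each, ORC2 held 8, ORC6 held 7, ORC5 held 6 and LRWD1 held 5. ORC4, the widest window of all, held no ORCA peak in any list and no MeDIP peak. The whole lists held 3.62 early, 3.51 mid and 0.450 late peaks per Mb. At each of these rates a window of 90.0 kb would most often hold no peak of the list. The number of peaks did not follow the length of the window: per 10 kb there were 6.999 early peaks in ORC6, 5.55 in LRWD1 and 4.55 in ORC1, against 1.90 in ORC3, 1.43 in ORC2 and 0.723 in ORC5. Per Mb this made 699.9 early peaks in ORC6 and 72.3 in ORC5, against 3.62 over the whole early list.

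**Figure D1:**
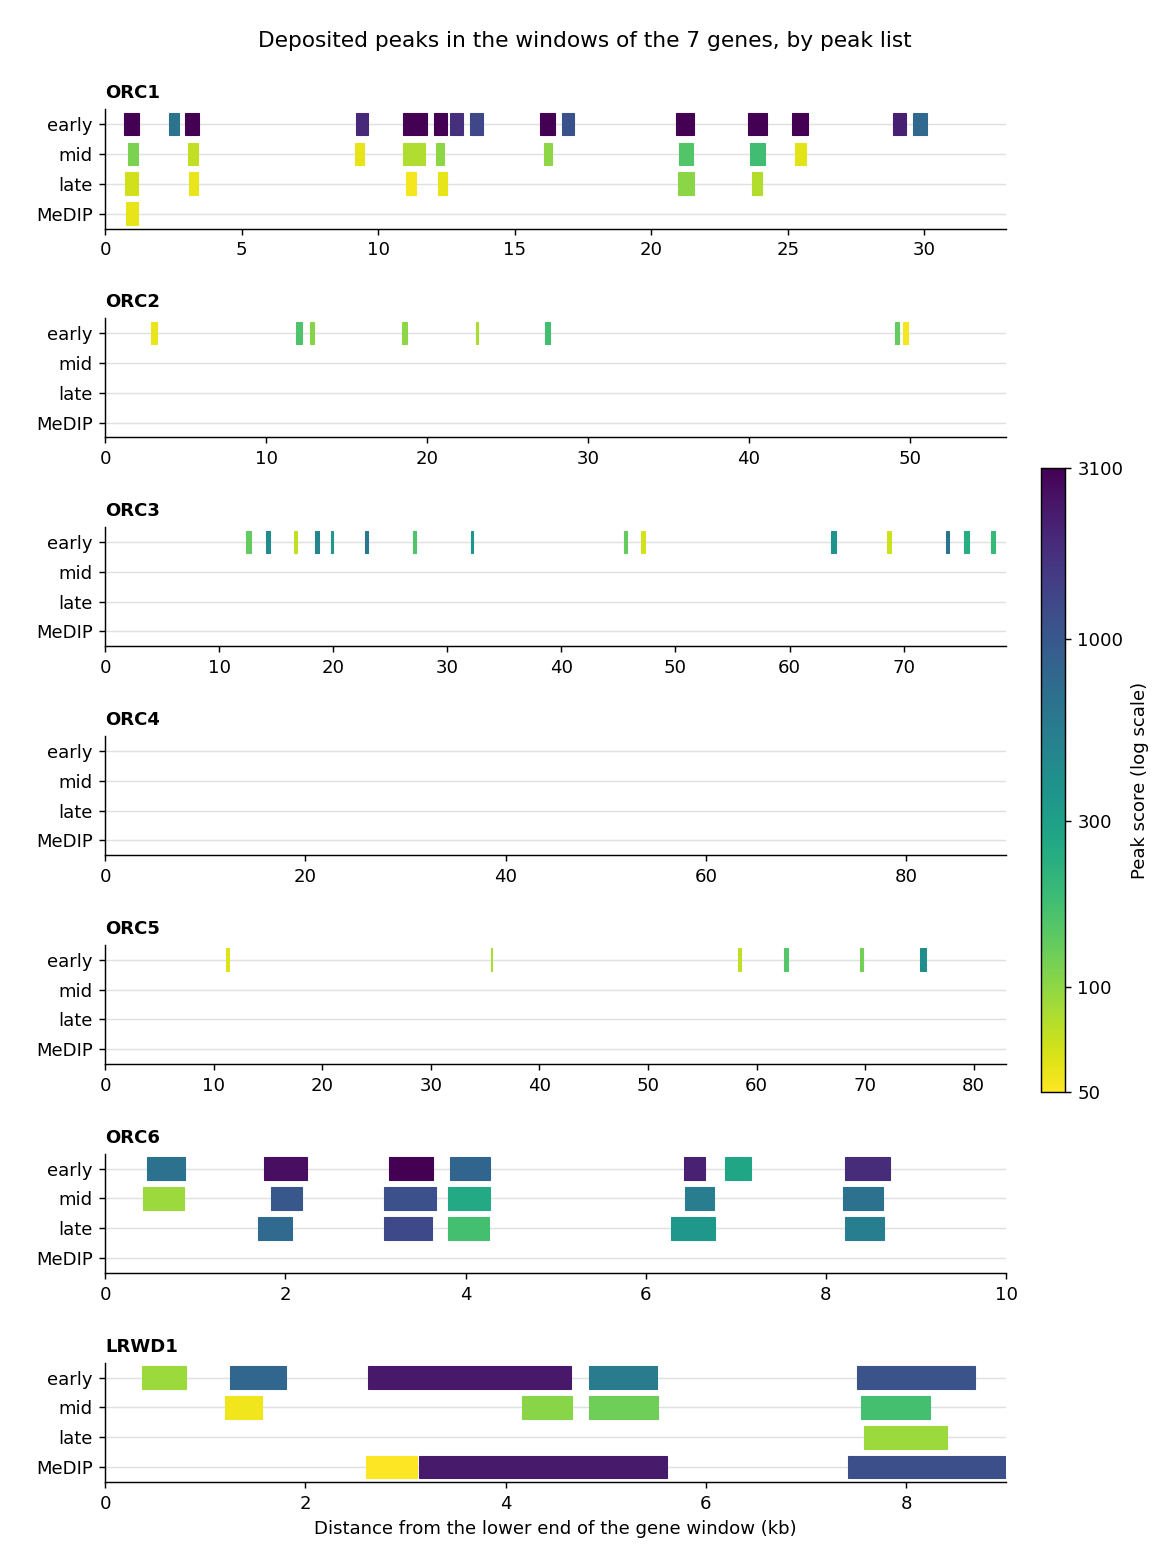
Peaks of the 3 ORCA lists and of MeDIP in each gene window, drawn to scale along the distance from the lower end of the window in kb, with the score of each peak as colour on a log scale. Each window has its own x scale, and the last MeDIP peak of LRWD1 runs on past the upper end. Mid and late ORCA peaks appear in ORC1, ORC6 and LRWD1, and the 90.0 kb of ORC4 are empty.

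The peaks in these windows were narrow and scored high. The score is the one the authors' peak caller gave to each peak, from 50 to a highest value of 3100 in the ORCA lists, and it orders peaks within a list. In the early list the 56 peaks had a median score of 456 and a median width of 409 bp, against 63.98 and 593 bp over all early peaks. Counting peaks under 1 kb wide with a score of at least 100 as narrow and high-scoring, 44 of the 56 early peaks, 13 of the 19 mid peaks and 6 of the 12 late peaks belonged to this class. Of all peaks, the class held 5.45% of the early list, 9.38% of the mid list and 10.3% of the late list. Without ORC1 there were 29 such early peaks.

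These genes took a large part of the highest scores of the early list. Of the 16 early peaks with the score 3100, 9 lay in these windows, 8 in ORC1 and 1 in ORC6. Of the 57 early peaks with a score of at least 1000, which are 0.534% of the list, 19 lay in ORC1, ORC6 or LRWD1. These 19 had a median width of 491 bp, and the other peaks of that score had a median width of 2138 bp. Among early peaks of that score under 1 kb wide, 17 of 28 were in these windows.

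**Figure D2:**
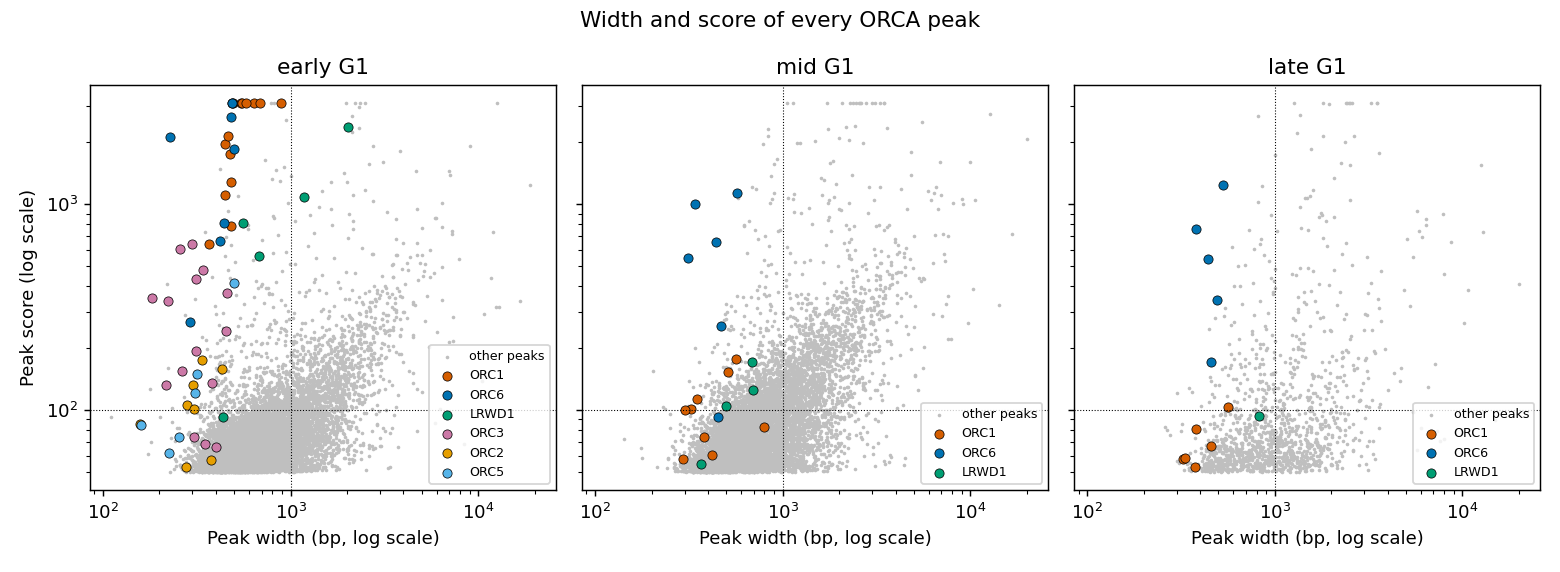
Width in bp and score of every ORCA peak in the early, mid and late lists, both on log axes, with peaks of the named genes coloured and all other peaks in grey; dotted lines mark 1 kb and a score of 100. Early peaks of ORC1 and ORC6 stand at the upper left, at widths from 227 to 887 bp and scores from 268 to 3100, and the ORC6 peaks run from 92.6 to 1130 in mid and from 172 to 1241 in late G1.

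ORC1, the subunit whose level changes through the cell cycle, carried the highest scores in early G1. Its 15 early peaks spanned chr1:52838686-52868081, which is 29.4 kb of a 33.0 kb window. All 15 were under 1 kb wide, with a median of 485 bp, and together they covered 24.4% of the window. Of these peaks, 8 had the score 3100, and the other 7 had scores from 639.5 to 2151. The distance between neighbouring peak midpoints ran from 566 to 6223 bp, with a median of 1568 bp.

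In mid G1 the ORC1 window held 9 peaks and in late G1 6, and each of them lay on an early peak. The 6 places found in all 3 lists began with chr1:52838686-52839232, which had a score of 3100 in the early list, 113 in the mid list and 66.95 in the late list. The place at chr1:52858923-52859564 scored 3100, 153 and 103 in early, mid and late G1, and that at chr1:52861537-52862221 scored 3100, 177 and 80.98. These 2 places held the highest ORC1 scores of the mid list, and the first of the 2 also held the highest ORC1 score of the late list. The places at chr1:52840927-52841417, chr1:52848900-52849786 and chr1:52850046-52850530 also had the score 3100 in early G1, with mid scores from 73.5 to 101 and late scores from 52.6 to 58.7. Every early ORC1 peak at 3100 had a mid counterpart, and of the 7 lower ones only that with a score of 1968 did. The 6 early peaks without a counterpart scored from 639.5 to 2151.

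Within each list ORC1 stood at a different height. Its early peaks had a median rank of 8.5 among 10666 peaks, where shared scores take their mean rank. Its mid peaks had a median score of 100.4, above the median of 69.95 over the mid list, and its late peaks a median of 62.8, below the late median of 69.8.

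ORC6, the small subunit outside the ring, kept high-scoring peaks in all 3 lists. The ORC6 window is 10.0 kb long and held 7 early, 6 mid and 5 late peaks, which covered 28.5%, 25.8% and 23.01% of it. The place at chr16:46726098-46726666 had the highest ORC6 score in each list, at 3100 in the early, 1130 in the mid and 1241 in the late list. The place at chr16:46724699-46725238 came next in each list, at 2670 in the early, 1009 in the mid and 759 in the late list.

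The other 3 ORC6 places found in every list had lower scores. The place at chr16:46731192-46731713 scored 1869 in the early, 654 in the mid and 541 in the late list. The place at chr16:46729277-46729771 scored 2133, 549.8 and 341 in the same stages. The place at chr16:46726804-46727274 was the lowest of the 5 in each list, at 814, 256 and 172. Thus the highest, second and lowest of the 5 places were the same in all 3 lists, and only the 2 between them changed order. A further ORC6 peak was shared by early and mid G1, with scores of 664 and 92.6, and another, with a score of 268, was found in the early list alone.

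The order of ORC6 and ORC1 differed between the lists. In mid G1, 5 of 6 ORC6 peaks scored above the highest ORC1 peak, and in late G1 5 of 5 did. In early G1 none of the 7 ORC6 peaks did, since both genes reached the highest value of the list, ORC6 with 1 peak and ORC1 with 8. Both genes were read within 1 sample here, but the early scores end at 3100, so that differences above that value cannot be seen.

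**Figure D3:**
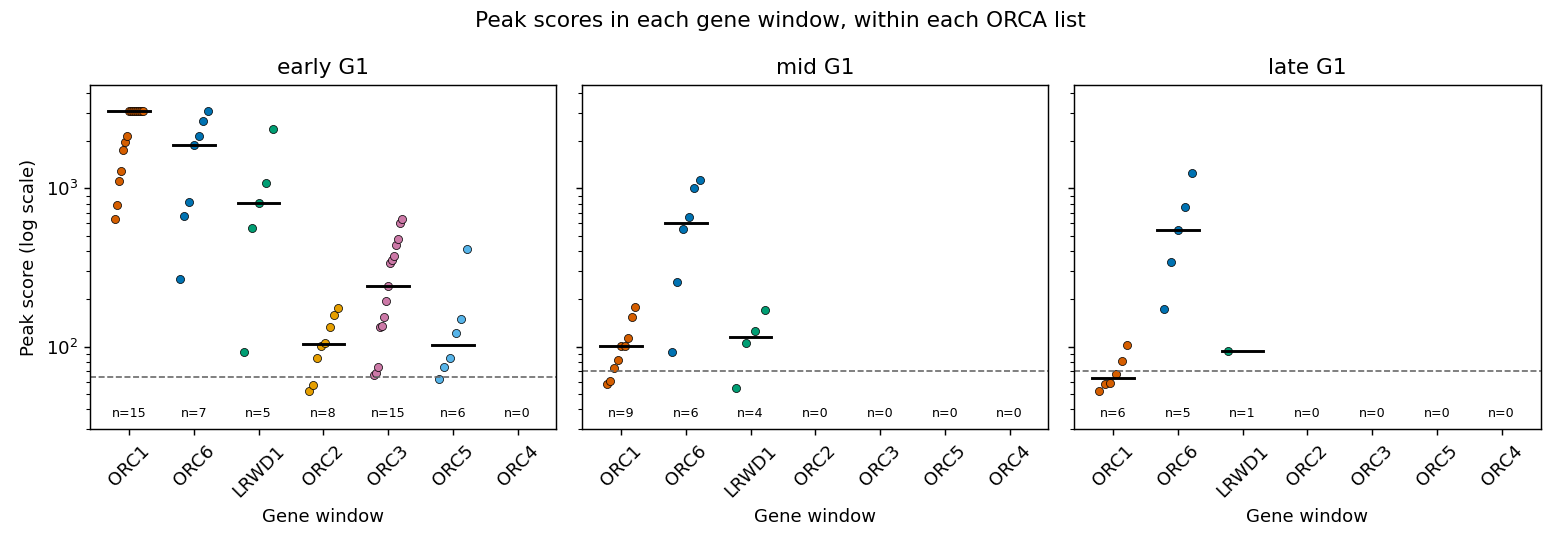
Score on a log axis of each peak in the 7 gene windows, within the early, mid and late lists; each point is a peak, the thick bar is the gene's median, n is the number of peaks and the dashed line is the median of the whole list. In early G1 ORC1 stands at the top, with a median of 3100, and in mid and late G1 ORC6 stands above ORC1, with medians of 602 and 541.

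LRWD1, the gene of ORCA itself, held the 2 early peaks over 1 kb wide among these genes and 3 of the 4 MeDIP peaks. Its 5 early peaks lay within chr7:102105365-102113685 and covered 54.2% of the 9.001 kb window. The peak at chr7:102107626-102109651 was 2026 bp wide and had a score of 2375, the highest of the gene. The peak at chr7:102112506-102113685 was 1180 bp wide, and its place was the only one of this gene found in all 3 lists, with scores of 1086, 171 and 93.6 from early to late G1. The places in early and mid G1 had scores of 813 and 54.6, 2375 and 105, and 563 and 125. The peak nearest to the lower end of the window, with a score of 92.3, was found in early G1 alone. Just outside the window, 34 bp past its upper end, lay an early peak of 362 bp with a score of 50.9.

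ORC2 and ORC3, which bind each other within the complex, and ORC5, another subunit of the ring, had ORCA peaks in early G1 only. The 15 ORC3 peaks spanned 65.6 kb and had scores from 66.2 to 642, with 12 of them at 100 or more. The highest, at chr6:88372698-88372997 and chr6:88321776-88322033, scored 642 and 605. The 8 ORC2 peaks spanned 47.03 kb and scored from 52.7 to 175, with the highest at chr2:201800322-201800659. The 6 ORC5 peaks spanned 64.4 kb and scored from 61.9 to 413, with the highest at chr7:103841069-103841568.

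Peaks of these 3 genes were narrower still than those of ORC1. Their median widths were 304 bp in ORC2, 312 bp in ORC3 and 283 bp in ORC5, and none was wider than 500 bp. Of their 29 early peaks, 20 scored at least 100, against 16.2% of all early peaks. None of the 29 had a mid or late counterpart, in lists whose lowest score was 50 in mid and 50.02 in late G1. Of all early peaks, 32.6% lay on a mid peak and 8.91% on a late peak. A count of 0 among 15 ORC3 peaks allows a share of up to 20%, among 8 ORC2 peaks 37.5% and among 6 ORC5 peaks 50%, for counting error only. Each of these limits is above the 8.91% for late peaks, and those of ORC2 and ORC5 are above the 32.6% for mid peaks.

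Merging the 3 lists gave 56 places in the windows. Early G1 alone held 37 of them, 7 were shared by early and mid G1 and 12 by all 3 stages, and no place lacked an early peak. All 19 mid peaks lay on an early peak, as did all 12 late peaks (95% Wilson intervals 83.2% to 100% and 75.8% to 100%), while over the whole lists 32.6% of mid and 65.4% of late peaks did. All 12 late peaks also lay on a mid peak, against 70.3% of the late list, and 12 of 19 mid peaks on a late peak, against 9.53% of the mid list. In the narrow, high-scoring class, all 13 mid peaks of these windows and 48.0% of 957 elsewhere lay on an early peak. On a late peak lay 10 of the 13 and 21.4% of the 957. All 6 late peaks of this class lay on an early and on a mid peak, against 68.7% and 86.3% of 131 elsewhere. In the other direction, 19 of 56 early peaks (33.9%, interval 22.9% to 47.001%) lay on a mid peak, which is close to the 32.6% of all early peaks. Among narrow, high-scoring early peaks, the share on a mid peak was 17 of 44 in these windows (38.6%, interval 25.7% to 53.4%) and 348 of 537 elsewhere (64.8%, interval 60.7% to 68.7%). The share of all early peaks in the windows was made of 19 of 27 peaks in ORC1, ORC6 and LRWD1 (70.4%) and none in the other genes. A late peak was overlapped by 12 of the 56 (21.4%, interval 12.7% to 33.8%), against 8.91% of all early peaks. In the narrow, high-scoring class it was 11 of 44 in these windows (interval 14.6% to 39.4%) and 177 of 537 elsewhere (32.96%, interval 29.1% to 37.05%). These intervals cover counting error only, and peaks of 1 gene are not independent. The windows were chosen by their peaks, and all mid and late peaks in them were in ORC1, ORC6 and LRWD1. Early peaks covered 24.4%, 28.5% and 54.2% of these 3 windows. Overlap with an early peak was thus more likely there in advance, and the contrasts with the whole lists are a description.

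Peaks that matched between lists lay close together. For peaks under 1 kb, the midpoints of 17 early peaks and their mid counterparts in these windows were a median of 25.5 bp apart, with a maximum of 147 bp. The 1292 such pairs elsewhere in the genome were a median of 87.0 bp apart. Between early and late G1 the medians were 33.0 bp for 11 pairs in these windows and 49.5 bp for 287 pairs elsewhere, and between mid and late G1 37.8 bp for 12 pairs and 53.5 bp for 305. The genes were chosen by the width and score of their peaks. Apart from the limit of 1 kb, the pairs elsewhere were matched for neither. The midpoints of overlapping peaks can lie only as far apart as their widths allow, so the difference from pairs elsewhere is a description.

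Outside LRWD1, the ORCA peaks kept within the windows and had no close neighbours. Within 50 kb on either side of the other 6 windows there was no early and no late peak, and the mid list had 1, beside ORC4. The whole lists held 3.62 early, 3.51 mid and 0.450 late peaks per Mb. At these rates most stretches of 50 kb hold no peak, so that empty flanks do not set these genes apart. The nearest early peak beyond the window was 438 kb away for ORC1, 3.49 Mb for ORC6 and 10.7 Mb for ORC3. Over the 6 genes the median of this distance was 867 kb in early, 534 kb in mid and 6472 kb in late G1. Neighbouring peak midpoints of the whole lists were a median of 25.9, 24.2 and 85.7 kb apart. That is another measure, taken from peak to peak and not from the edge of a window. The 6 windows also include some with no peak of the list, ORC4 in early G1 and ORC2, ORC3, ORC4 and ORC5 in mid and late G1. LRWD1 lay among other peaks, with 8 early, 6 mid and 1 late peak in the 50 kb around its window.

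**Figure D4:**
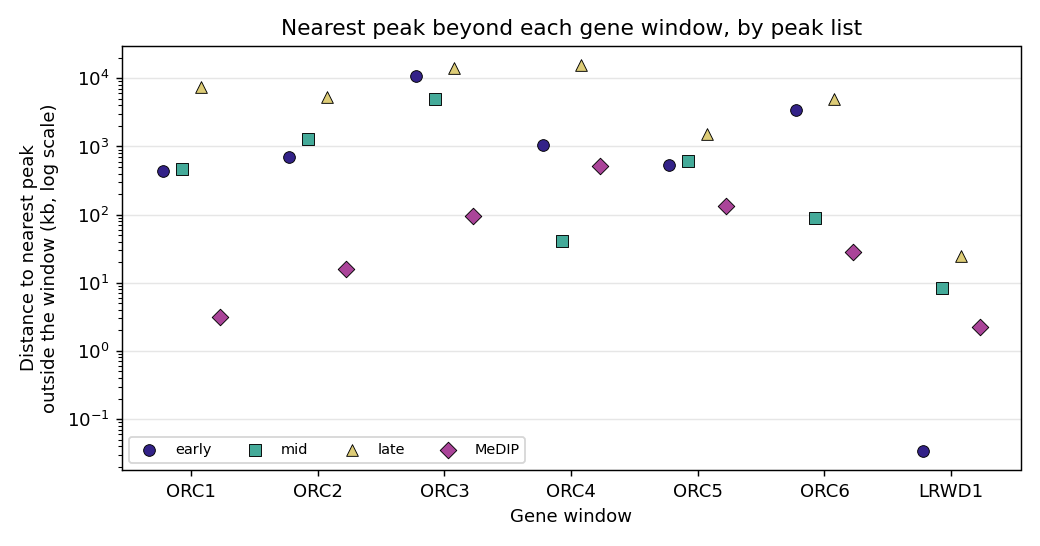
Distance in kb, on a log axis, from each gene window to the nearest peak beyond it in the early, mid, late and MeDIP lists. Early distances are 438 kb or more for all genes but LRWD1, where the next early peak is 34 bp away.

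Methylated DNA was called in 2 of the 7 windows. Over the whole MeDIP list there were 25.3 peaks per Mb, so that a short window such as that of ORC6 can well hold none. ORC1 held 1 MeDIP peak, at chr1:52838749-52839211, with a score of 58.1 in a list with a median score of 187. It lay on the first ORC1 place, at the lower end of the window, which is the 3′ side of this gene on the minus strand. LRWD1 held 3 MeDIP peaks, of which that at chr7:102108139-102110613 scored 2350 and that at chr7:102112417-102116139, which runs past the window, scored 1149. The third, at chr7:102107605-102108115, scored 50.6, and no MeDIP peak lay in the first 2605 bp of the window, the 5′ side of this gene on the plus strand.

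Few ORCA peaks of these genes lay on MeDIP peaks, while the 4 MeDIP peaks in the windows all lay on an early ORCA peak. Over the whole MeDIP list 4.6% did, and 3 of the 4 lay on a mid peak, against 6.03% of the list. The windows were chosen by their ORCA peaks, and 3 of the 4 MeDIP peaks were in LRWD1. Early peaks covered 54.2% of that window, and 2 of its MeDIP peaks were 2475 and 3723 bp wide. Overlap there was likely in advance, so the contrast with the whole list says nothing on a link between ORCA and methylation. Of the 56 early peaks, 4 overlapped a MeDIP peak (7.14%, interval 2.81% to 16.98%), 3 in LRWD1 and 1 in ORC1, against 35.3% of all early peaks. Among narrow, high-scoring early peaks the share was 4.55% of 44 in these windows and 40.4% of 537 elsewhere. In mid G1 it was 4 of 19 peaks (21.1%, interval 8.51% to 43.3%), against 48.6% of the mid list, and in late G1 2 of 12, against 47.9% of the late list. ORC2, ORC3, ORC4, ORC5 and ORC6 had no MeDIP peak in the window. MeDIP peaks lay nearby in some cases, at 3.10 kb from the ORC1 window, 15.9 kb from that of ORC2 and 28.1 kb from that of ORC6, and at 517 kb from that of ORC4.

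Series of such peaks were rare in the genome. A run was taken as 4 or more narrow, high-scoring peaks with gaps of at most 20 kb between neighbours. The early list had 10 runs with 83 peaks, of which 4, with 38 peaks, lay in ORC1, ORC3, ORC6 and ORC2, with 15, 12, 7 and 4 peaks. In the mid list 2 of 9 runs were in these genes, ORC6 and ORC1 with 5 peaks each, and in the late list 1 of 3, ORC6 with 5 peaks. Of all runs in the 3 lists, those of ORC1 and ORC3 in early G1 held the most peaks. Runs were built on the width and score by which the genes were chosen, so that their place among the runs is a description.

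The loci most like these genes were the 5 other early runs with the most peaks. They lay at chr16:74657727-74695458 and chr6:36463445-36508137, with 10 peaks each, at chr12:27450495-27475407 with 9, at chr17:40265502-40273496 with 6 and at chr6:31852056-31864636 with 5. The median scores of the runs were 3100 in ORC1, 1869 in ORC6, 345 in ORC3 and 132 in ORC2, against 795, 274, 260, 222 and 161 in the 5 other runs, in the order given. None of the 5 held a mid or a late peak, as in ORC2 and ORC3. Each of the 5 held at least 1 MeDIP peak, as did the early run of ORC1, and those of ORC2, ORC3 and ORC6 held none. The sixth other early run, at chr7:158123665-158153571, also held 8 mid and 9 late peaks. Genes were not assigned to these runs, since no hg19 gene positions other than the windows were used.

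Whether the narrow peaks lie on exons, and whether their spacing follows that of exons, was not tested for the same reason. The exon comparison had been planned because such peaks could come from ORCA binding or from carry-over of cDNA, a DNA copy of spliced RNA. Neither was tested here. The windows may also take in parts of neighbouring genes: in the RefSeq annotation of GRCh38.p14, PRPF38A overlaps ORC1, AKIRIN2 overlaps ORC3, ACVR2A and MBD5 overlap ORC4 and POLR2J overlaps LRWD1.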

How the data were processed

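Per the submitters' processing notes, reads were processed with Trimmomatic and Bowtie 0.12.7, and the builds named are GRCh37 and hg19, the same assembly. The authors deposited 1 peak list per immunoprecipitated sample with a score per peak, whose peak names begin with MACS. The late list is marked with another caller label than the early and mid lists, of unstated meaning. The caller's settings, its control and the read depth are not given in the sources used here, and a list from fewer reads or a stricter setting is shorter.

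Peaks on chromosomes 1 to 22 and X were kept, and starts were counted from 1. Peaks were assigned to windows and lists compared at an overlap of 1 bp. Members, windows, classes and runs were chosen with earlier results of these data known. All 7 genes are named, with peaks of score 100 or more one by one or by range, and elsewhere the 5 early runs with most peaks, ties by median score. There was 1 sample per group and no test was run. Shares have 95% Wilson intervals, and a count of 0 allows 3 counts. The code was tested on simulated lists. Other licensing genes and exons were not analysed here, since an hg19 annotation was not used. Python 3.11.15, numpy 2.4.6, pandas 2.3.3, scipy 1.17.1 and matplotlib 3.10.9 were used.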

Additional observations from a re-analysis of the deposited data

How the results depend on the processing

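Of 43 alternatives over 12 results, 37 left a count within 1.5 times its value or a share within its interval. With each list cut by score to the 1328 peaks of the late list, 8 mid peaks remained in the windows in place of 19, and 44 early peaks in place of 56. With windows widened by 5 kb the MeDIP peaks numbered 7 in place of 4. The 13 narrow, high-scoring mid peaks became 5 at a score of at least 200 and 7 in the top 10% of the list. Chosen after seeing the data, leaving out ORC1 left 29 of 44 narrow, high-scoring early peaks, and keeping only genes with a mid peak put the early share on mid peaks at 70.4% in place of 33.9%. The cut list, the higher score, the top 10% and the set without ORC1 each kept fewer peaks by choice. The widened windows took in 1 more MeDIP peak beside ORC1 and 2 beside LRWD1. Keeping only genes with a mid peak left the same 19 overlapping early peaks, now among 27 in place of 56. What lies behind these counts was not tested. The planned exon alternatives were not run, since hg19 exons were not used here. No replicate could be left out. No paired analysis was possible because each group has 1 sample. The unknown read depth limits every statement that a list holds no peak.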
